A study of Homo sapiens with 8 samples.

Results

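The sites described here were 11200 HoxC5 peaks called in PC-3 cells with HoxC5 overexpressed and not called there for endogenous HoxC5. All lay away from promoters, were shared with Pbx4 and carried the sequence bound by AP-1. They were selected on the deposited peak lists and the genome sequence. A peak of the overexpressed HoxC5 list on chromosomes 1 to 22 or X had to overlap no HoxC5 peak of either endogenous replicate, to overlap a Pbx4 peak by at least 1 bp, to have its summit over 1 kb from the start (TSS) of each protein-coding transcript, and to hold TGACTCA on either strand, wholly within 50 bp of the summit. That 7-letter word is called the AP-1 word below, and it reads TGAGTCA on the other strand. Of 67196 peaks in the list, 67169 were on those chromosomes, 65217 of them had no endogenous peak, 43870 of these had a Pbx4 peak, 38905 of these were distal and 11200 of these held the word, 16.7% of the list. The remaining 27705 gained distal HoxC5-Pbx4 sites had no AP-1 word in the window and are the comparison used most below.

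PC-3 is a human prostate cancer line. ChIP-Seq was done with an antibody to HoxC5 in PC-3 cells labelled endogenous and control (2 libraries, replicates 1 and 2), and in PC-3 cells labelled Hoxc5 overexpression (1 library), and with an antibody to Pbx4 in PC-3 cells labelled Pbx4 overexpression (1 library). In the study's description the overexpressed proteins carried a Flag tag, while the antibodies were to the factors themselves. The HoxC5 and Pbx4 peaks therefore come from different cells, and Pbx4 was not profiled without overexpression here, so a shared site is a shared position and not a measurement of both proteins on the same chromatin. Each overexpressed condition had 1 library, and no ChIP library was labelled as a vector control, so differences between conditions had no replicate check, and p-values were not computed. The endogenous lists were short, with 2525 and 170 peaks against 67196 for overexpressed HoxC5 and 153620 for Pbx4, and the highest q in the lists was 0.0398, 0.0499, 0.00997 and 0.0490. The study's methods state a single q limit for all calls, so the overexpressed HoxC5 list stopped at a lower q than the others. "Gained" here means only that no endogenous peak was called: weaker endogenous binding and fewer reads cannot be told apart. The study's methods state depth as an average over libraries, and the lists hold no total of a single library, so the depth behind each list is unknown.

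AP-1 is a family of dimers of Fos, Jun and related leucine zipper proteins. It binds the AP-1 word at many enhancers, responds to growth factor and stress signalling through MAP kinases, and helps to open chromatin for other factors. Hox proteins choose the identity of body segments in the embryo, and they bind DNA more selectively in dimers with Pbx proteins, often with Meis proteins as a further partner. The preferred Hox-Pbx words start with TGAT, and the AP-1 word is a different sequence.

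The sequences below show what the word looked like at 5 of the 10 sites of highest HoxC5 fold enrichment, with the AP-1 word in capitals. Fold enrichment is the peak caller's ratio of the ChIP signal to the local background. Each window is 101 bp of hg19, centred on the HoxC5 summit and written 5′ to 3′ on the plus strand. Sites carry the name of the gene with the nearest protein-coding TSS.
LUZP2 site, chr11:25087330-25087430, plus strand: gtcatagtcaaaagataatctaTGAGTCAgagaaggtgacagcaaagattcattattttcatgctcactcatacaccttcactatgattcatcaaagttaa
RPRD1B site, chr20:36672446-36672546, plus strand: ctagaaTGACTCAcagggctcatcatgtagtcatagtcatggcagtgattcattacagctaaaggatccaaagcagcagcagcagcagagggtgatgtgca
NAV2 site, chr11:20057297-20057397, plus strand: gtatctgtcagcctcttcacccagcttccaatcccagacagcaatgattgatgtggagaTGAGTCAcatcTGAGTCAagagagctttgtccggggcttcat
ATP1B1 site, chr1:169132458-169132558, plus strand: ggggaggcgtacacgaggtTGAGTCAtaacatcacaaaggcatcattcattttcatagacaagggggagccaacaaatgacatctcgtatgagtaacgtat
SERP1 site, chr3:150215948-150216048, plus strand: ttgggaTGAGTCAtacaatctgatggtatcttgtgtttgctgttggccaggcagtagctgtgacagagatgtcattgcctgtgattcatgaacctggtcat

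At the LUZP2 site, in an intron 337 kb downstream of the TSS, the fold enrichment was 48.2 for HoxC5 and 22.8 for Pbx4. The RPRD1B site lay in an intron of that gene and 5.66 kb upstream of its nearest TSS, with folds of 39.6 and 15.0. The NAV2 site, in an intron 13.0 kb downstream, had folds of 37.4 and 24.1, held 2 AP-1 words, and also held the Hox-Pbx word TGATTGAT to their left. Its HoxC5 and Pbx4 summits were 7 bp apart, and the Pbx4 summit was 5 bp from an AP-1 word. The ATP1B1 site was intronic, with folds of 36.7 and 10.6, and the SERP1 site was intergenic, with folds of 35.6 and 10.4. The site of highest HoxC5 fold of all, 51.9, lay in an exon of PRKAA2, the gene of an AMP-activated kinase subunit, and was first by fold in the whole HoxC5 list. Its Pbx4 fold was 10.8, rank 23209 in the Pbx4 list. Others of the 10 sites of highest HoxC5 fold were in DCBLD1 (39.7), near PDP1 (36.0), and in PAQR5 and nearest KIF23 (33.8).

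The sites of highest Pbx4 fold were mostly others, and the windows below show those nearest TENM4 and GSAP, in the same form.
TENM4 site, chr11:78804110-78804210, plus strand: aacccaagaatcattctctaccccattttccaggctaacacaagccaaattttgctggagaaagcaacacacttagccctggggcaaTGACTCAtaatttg
GSAP site, chr7:77022818-77022918, plus strand: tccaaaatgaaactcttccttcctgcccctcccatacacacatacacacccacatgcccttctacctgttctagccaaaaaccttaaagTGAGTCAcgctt

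The TENM4 site had the highest Pbx4 fold, 35.0, and a HoxC5 fold of 3.97, which ranked 60302 of the HoxC5 list. Its Pbx4 summit was 171 bp from the AP-1 word and 131 bp from the HoxC5 summit. The GSAP site had folds of 33.5 for Pbx4 and 11.1 for HoxC5, and its Pbx4 summit was 119 bp from the word. Among the 10 sites of highest Pbx4 fold, PDP1 was the one that was also among the 10 of highest HoxC5 fold. The others were nearest CCDC57 (31.4), GJE1 (30.8), ZNF827 (28.9), CDYL (28.2), RASL11B (27.7), GADL1 (27.4) and NTSR1 (26.9), with HoxC5 folds between 4.80 at CDYL and 24.1 at GJE1. Over all 11200 sites the ranks of the HoxC5 and Pbx4 folds were weakly related (Spearman's rho 0.135, Pearson's r of the log2 folds 0.144), and so were those of the 27705 sites without the word (rho 0.149). These are descriptions across sites, which share 1 library per factor.

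The AP-1 word was far more frequent at gained distal sites shared with Pbx4 than at gained sites without Pbx4 or at promoters. It was held by 28.8% of them (11200 of 38905, 95% interval 28.3 to 29.2%), against 11.3% (10.8 to 11.9%) of 12956 gained distal sites without Pbx4. Of 4965 gained promoter sites with Pbx4, 10.2% (9.36 to 11.1%) held it, and of 8391 gained promoter sites without Pbx4, 1.75% (1.48 to 2.06%). Of 1384 distal sites with Pbx4 that already had an endogenous HoxC5 peak, 29.2% (26.8 to 31.7%) held the word, an interval that includes the share at gained sites. In windows of the same length 1 kb from the summits of the 38905 sites, the share was 1.82% on both sides. Because the word chose the sites, these shares are descriptions, and the intervals, exact Clopper-Pearson, cover counting error only.

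The word was concentrated at the summit and fell off within about 100 bp of it. The bin just right of the summit held 7.30 words per 100 gained distal HoxC5-Pbx4 sites, and the outermost bins held 0.383 and 0.378. Among sites without the word in the window, 26.0% (25.5 to 26.5%) held one a little farther out, within 200 bp, against 12.5% (11.9 to 13.1%) that held a further word there among the 11200. Beyond 300 bp and within 500 bp the shares were 8.89% and 7.96%. The sites just inside and outside the limit on the word were alike in fold: 824 with the word's centre 43 to 47 bp from the summit had a median HoxC5 fold of 6.67, and 707 with it at 48 to 52 bp had 6.88. At the TSS limit, the nearest site inside was 1004 bp away (RUBCN, HoxC5 fold 4.98) and the nearest outside 996 bp away (NKIRAS1, 5.53). At the overlap limit, 7 sites shared 1 to 20 bp with a Pbx4 peak, with a median HoxC5 fold of 4.51, and 3 sites with the word missed a Pbx4 peak by up to 20 bp, with 3.86. The nearest endogenous peak was 20 bp from a site, and 99 sites had one within 1 kb. The median distance was 286 kb.

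The rule did not use the position of the Pbx4 summit itself, but it asked for a Pbx4 peak that overlapped the HoxC5 peak. The selection thus already brought the Pbx4 summit near the word, and no distance free of it was computed. The median distance from the nearest Pbx4 summit to the AP-1 word was 40 bp (interval of the median 39 to 41 bp), and at 60.4% (59.4 to 61.3%) of the sites it was at most 50 bp. The HoxC5 and Pbx4 summits were 38 bp apart in the median, against 53 bp (52 to 54 bp) at sites without the word. The rule had placed the HoxC5 summit near the word, so the distances of both summits from the word are given also for a set in which the word was not placed by its distance from a summit. In 14643 gained distal HoxC5-Pbx4 sites with exactly 1 AP-1 word in the stretch common to both peaks, the median distance was 36 bp (35 to 36 bp) for the HoxC5 summit and 45 bp (45 to 46 bp) for the Pbx4 summit. The HoxC5 summit was the nearer at 56.8% of these and the Pbx4 summit at 42.2%. Pbx4 peaks were wider, with a median of 423 bp against 233 bp for HoxC5. The Pbx4 peak covered the HoxC5 peak wholly at 68.7% of the 11200 sites. The common stretch was thus mostly the HoxC5 peak, around the HoxC5 summit, so these distances are no comparison of the 2 factors.

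Sites with the AP-1 word had slightly higher median folds for both factors. The median HoxC5 fold was 6.97 (6.89 to 7.02, n = 11200, range 2.04 to 51.9) with the word and 6.40 (6.37 to 6.48, n = 27705) without. The median Pbx4 fold was 9.19 (9.08 to 9.30) with it and 8.55 (8.48 to 8.60) without. The interquartile ranges overlapped widely, from 5.33 to 9.25 with the word and from 5.03 to 8.50 without for HoxC5, so the differences of 0.566 and 0.633 between medians are small beside the spread between sites. Where a fold of at least 5 was asked for in both lists, they were 0.338 and 0.283. When the 38905 sites were ranked by HoxC5 fold, the share with the word went from 22.2% (20.9 to 23.6%) in the lowest decile to 33.8% (32.3 to 35.3%) in the highest. Ranked by Pbx4 fold, it went from 21.7% (20.4 to 22.99%) to 32.0% (30.5 to 33.4%). The 404 retained distal sites with Pbx4 and the word had higher medians than the gained ones, 8.94 (8.53 to 9.36) for HoxC5 and 10.4 (9.68 to 10.99) for Pbx4.

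Most sites held a single word: 10477 of 11200 (93.5%) had 1, 687 had 2, 29 had 3, 4 had 4 and 3 had 5. The 723 sites with 2 or more had a median HoxC5 fold of 7.42 (7.11 to 7.64) against 6.93 (6.86 to 7.02) with 1, and a median Pbx4 fold of 9.87 (9.28 to 10.3) against 9.15 (9.05 to 9.26). The 36 sites with 3 or more had a HoxC5 median of 9.03 (7.15 to 10.1) and a Pbx4 median of 8.41 (6.99 to 9.87), the latter not distinct from that of single-word sites. A site with 5 words follows in the same form, since it makes clear how the words were arranged.
CDYL site, chr6:4487937-4488037, plus strand: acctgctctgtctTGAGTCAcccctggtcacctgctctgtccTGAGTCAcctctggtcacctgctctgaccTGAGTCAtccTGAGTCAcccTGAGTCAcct

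The CDYL site with 5 words, in a lncRNA gene 218 kb upstream of CDYL, had folds of 6.66 for HoxC5 and 8.28 for Pbx4, and one nearest NPIPB11 had 5.61 and 10.7. Neither was near the top of either list.

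The letters on either side of the word differed from those around the word in the genome. The word can be read from both strands, so each occurrence has 2 flanking letters, each just 5′ of a TGA. At these sites that letter was A in 34.8%, G in 30.6%, C in 26.3% and T in 8.31%, whereas over the 456218 occurrences on chromosomes 1 to 22 and X it was A in 24.2%, G in 24.4%, C in 27.4% and T in 24.0%. T was thus depleted and A and G were more common. Of all genomic words, 2.62% (11969) were at these sites and 5.50% in any HoxC5 peak. By form, 4.89% of the genome's ATGACTCAC, 4.86% of ATGAGTCAC and 4.75% of ATGACTCAT were at these sites, against 1.76% of CTGACTCAG, which was the commonest form in the genome (38963), and 0.332% of TTGACTCAA. The forms favoured here are those that Fos and Jun dimers are known to prefer, as background.

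Words known for other factors were then counted in the same windows, on both strands and leaving out any that overlapped the AP-1 word. To allow for the space that the AP-1 word takes, they were counted per 1000 places at which the word could start. Those of TEAD proteins, the partners of YAP (GGAATG), were at 1.10 per 1000 places with the AP-1 word, 1.25 at sites without it and 0.598 in windows 1 kb to the right of the first. The RUNX word TGTGGT was at 1.08, 1.30 and 0.765, the nuclear factor I word TTGGCA at 1.08, 1.24 and 0.557, the forkhead word GTAAACA at 0.326, 0.453 and 0.146, and the ETS word CCGGAA at 0.195, 0.213 and 0.0671. These enhancer words were thus denser at the sites than 1 kb away, and less dense than at sites without the AP-1 word. For ETS the latter difference was small. The shares of windows with it were 1.54% (1.32 to 1.79%) with the AP-1 word and 1.92% (1.77 to 2.09%) without. Their intervals overlapped slightly, and these shares were not adjusted for the space that the AP-1 word takes. The Meis word TGACAG was at 1.05, 1.03 and 0.698, nearly level between sites with and without the AP-1 word. The GATA word AGATAA, at 0.591 against 0.833, and the general homeodomain word TAATTA, at 0.228 against 0.427, were sparser at the sites than 1 kb away. So were the E-box CAGGTG, at 0.828 against 1.00, and the CEBP word TTGCNNCAA (N is any letter), at 0.0931 against 0.120. The CRE, TGACGTCA, which ATF and CREB proteins bind, was found in 13 windows (0.116%), against 1 window 1 kb to the right and 3 to the left. It was in 0.159% of sites without the AP-1 word and in 0.369% of all overexpressed HoxC5 peaks. Per 1000 places the CRE was at 0.0146 with the AP-1 word, 0.0169 without it and 0.0414 in all these peaks. The median GC content was 46.5% in these windows and 41.6% in those 1 kb to the right, and its part in these densities was not tested.

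Words of Hox-Pbx dimers were rare. One of TGATTGAT, TGATTAAT and TGATTTAT, clear of the AP-1 word, was in 2.11% (1.85 to 2.39%) of the 11200 windows, which is 236 sites, against 1.57% (1.35 to 1.82%) 1 kb to the right and 3.05% (2.85 to 3.26%) at sites without the AP-1 word. These shares were not adjusted for the space that the AP-1 word takes. Per 1000 places, TGATTGAT and TGATTAAT were denser at the sites than in the flank, at 0.0954 against 0.0400 and 0.101 against 0.0467. TGATTTAT, of posterior Hox proteins, was not (0.0729 against 0.0838). At sites without the AP-1 word the densities of the 3 words, in the same order, were 0.104, 0.129 and 0.106. Sites with one of the 3 had a higher median HoxC5 fold, 7.99 (7.61 to 9.02, n = 236) against 6.93 (6.87 to 7.02), with a Pbx4 median of 8.86 (8.22 to 9.68) against 9.19 (9.10 to 9.30). The shorter Hox word TAATGA, in 7.62% of the windows, went the same way, with HoxC5 medians of 7.67 (7.42 to 8.03) with it and 6.89 (6.81 to 6.98) without. For Meis words the Pbx4 medians were 9.88 (9.50 to 10.2) with the word and 9.13 (9.02 to 9.22) without. The HoxC5 medians were 7.17 (7.02 to 7.51) with it and 6.93 (6.86 to 7.02) without. After NAV2, the sites of highest HoxC5 fold with a Hox-Pbx word were those nearest SLC39A8 (32.3), DUSP21 (30.5), NDUFB11 (29.6) and SARAF (29.0). The windows of the first 3 of these are shown next, and the Hox-Pbx word lies in the lower-case letters, read on the other strand as atcaatca or attaatca.
SLC39A8 site, chr4:103061271-103061371, plus strand: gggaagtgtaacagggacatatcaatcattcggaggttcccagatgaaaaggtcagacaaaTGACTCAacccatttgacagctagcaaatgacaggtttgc
DUSP21 site, chrX:44687409-44687509, plus strand: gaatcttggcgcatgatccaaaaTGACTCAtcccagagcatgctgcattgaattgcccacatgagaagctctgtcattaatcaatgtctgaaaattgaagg
NDUFB11 site, chrX:46988649-46988749, plus strand: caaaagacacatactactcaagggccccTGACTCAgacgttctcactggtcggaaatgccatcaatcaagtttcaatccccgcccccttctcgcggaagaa

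A further word of the same pattern was chosen after the sequences had been read, because it was seen among the windows of highest HoxC5 fold. The word TGATTCAT fills the place left by the other 3 letters in TGATTNAT, and 3 of the first 5 windows above hold it (LUZP2, RPRD1B and SERP1). It was in 2.44% (2.16 to 2.74%) of the 11200 windows, which is 273 sites, against 0.473% (0.355 to 0.619%) 1 kb to the right and 0.571% 1 kb to the left. Among the 100 sites of highest HoxC5 fold it was in 18, which include windows that led to its choice. With all named sites left out, it was in 15 of the 100 then highest and in 4.82% of the highest decile. By deciles of HoxC5 fold it went from 1.34% (0.751 to 2.20%) to 5.18% (3.96 to 6.64%), while by deciles of Pbx4 fold the ends were 2.41% (1.59 to 3.49%) and 2.59% (1.74 to 3.70%). Sites with it had a median HoxC5 fold of 8.24 (7.45 to 8.98) against 6.93 (6.88 to 7.02) without, and a median Pbx4 fold of 8.95 (8.31 to 9.71) against 9.19 (9.10 to 9.30). All 4 words of the form TGATTNAT together were in 30 of the 100 sites of highest HoxC5 fold (21.2 to 40.0%) and in 4.57% of all 11200. With the named sites left out, they were in 25 of the 100 then highest (16.9 to 34.7%).

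The same word was more frequent still at sites without the AP-1 word, at 6.36% (6.08 to 6.66%) of all and 29 of the 100 of highest HoxC5 fold. Its first 7 letters differ from the AP-1 word at 1 position, so a Hox-Pbx and an AP-1 reading of it cannot be told apart from the letters. When the last letter was changed, TGATTCAC, TGATTCAG and TGATTCAA were in 3, 2 and 1 of the 100 sites of highest HoxC5 fold that held the AP-1 word, against 18 for TGATTCAT. With the named sites left out, these counts stayed 3, 2 and 1, against 15 for TGATTCAT. Over all 11200 sites TGATTCAC, TGATTCAG and TGATTCAA were in 1.15%, 1.46% and 0.643%, also above their shares of 0.384%, 0.366% and 0.420% 1 kb to the right. In these counts a word may overlap the AP-1 word.

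**Figure D1:**
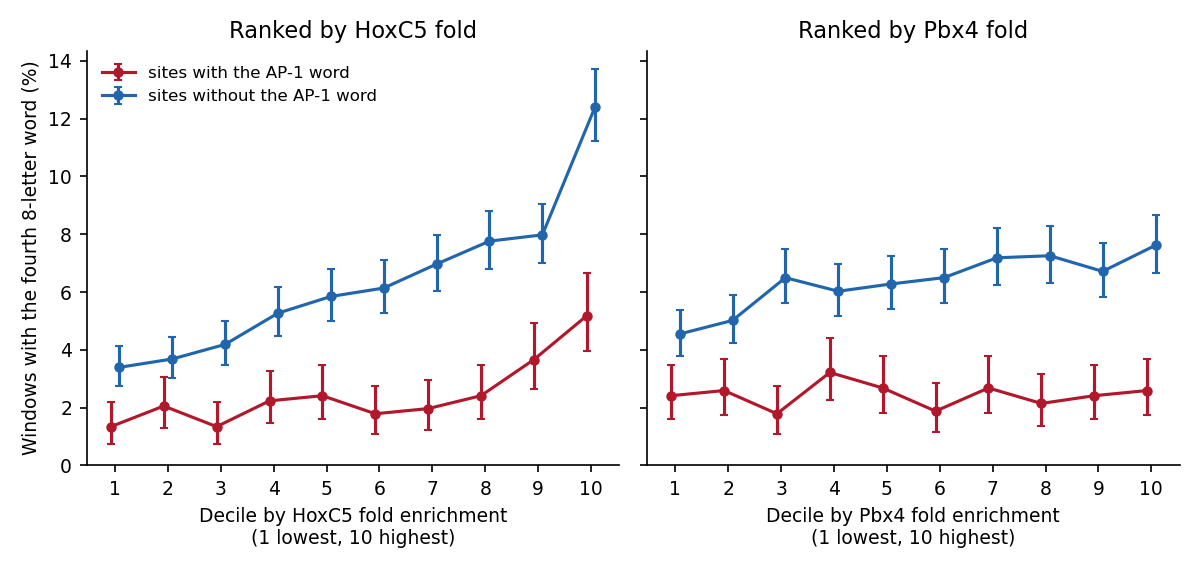
Percent of windows with TGATTCAT, the fourth 8-letter word (y), by decile of HoxC5 fold (left) and of Pbx4 fold (right), for gained distal HoxC5-Pbx4 sites with and without the AP-1 word, with exact 95% intervals. With the AP-1 word the share is 1.34% in the lowest and 5.18% in the highest decile by HoxC5 fold, and by Pbx4 fold 2.41% and 2.59%.

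Some sites had the word in copies of one repeated sequence. Windows of 201 bp around the word were compared with each other, and pairs were linked where at least 100 bp aligned at 75% identity or more with the words of both in register. This linked 1186 sites (10.6%, 10.0 to 11.2%) to another, in 122 families, of which 19 had 10 or more sites and held 891. The largest had 414, on 23 chromosomes, the next 128, 55 and 49. Linked sites had a median HoxC5 fold of 7.02 (6.77 to 7.14) against 6.95 (6.89 to 7.02) for the others, and a lower median Pbx4 fold, 8.58 (8.36 to 8.91) against 9.25 (9.15 to 9.32). Examples of 3 families are shown, 61 bp each, in the orientation that reads TGACTCA, to let the letters around the word be seen. From the family of 128:
Site nearest POLE2, chr14:50126713-50126773, plus strand: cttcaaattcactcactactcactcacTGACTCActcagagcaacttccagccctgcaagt
From the family of 49:
Site nearest AMN1, chr12:31911344-31911404, plus strand: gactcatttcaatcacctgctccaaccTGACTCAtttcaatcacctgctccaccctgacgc
Site nearest DKK2, chr4:108340805-108340865, plus strand: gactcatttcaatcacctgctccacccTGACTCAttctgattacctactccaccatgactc
From a family of 15:
Site nearest SSPN, chr12:26409374-26409434, plus strand: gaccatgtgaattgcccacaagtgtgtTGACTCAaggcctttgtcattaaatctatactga

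The letters of the largest family resemble the Alu element, the most abundant short repeat of the human genome, as background, and no repeat annotation was used. Its median HoxC5 fold was 6.36 (6.14 to 6.67) and its median Pbx4 fold 8.67 (8.20 to 9.27), below the medians of all the sites for HoxC5. In the family of 128, the form CTGACTCAC was present in 84, with a HoxC5 median of 8.46 (7.82 to 8.97) and a Pbx4 median of 9.67 (8.66 to 10.5). In the family of 49, the form ATGAGTCAG was present in 45, 36 sites had 2 or more words, and the HoxC5 median was 8.89 (8.37 to 11.1) with a Pbx4 median of 7.79 (6.75 to 9.02). In that family the word recurs in steps of 28 bp: of the 30 two-word sites with centres 28 bp apart, the commonest spacing, 17 belonged to it. The family of 15 carried the form TTGACTCAA, the one least often found at sites, in 13 of its copies, with a HoxC5 median of 9.12 (6.13 to 13.5). Fixed spacings to other words also went with the largest family. The E-box CAGGTG stood 42 bp from the AP-1 word 69 times, where the median count per gap was 15, and 56 of these were in it. The GC box GGGCGG stood 34 bp away 42 times, where the median was 5, and 40 of these were in it.

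Position relative to genes was much the same with and without the word. The summit was inside a protein-coding gene at 49.96% (49.0 to 50.9%) of the sites, against 50.7% (50.2 to 51.3%) without the word and 47.7% (46.8 to 48.5%) of gained distal sites without Pbx4. It was in an exon of a coding transcript at 2.48%, in a lncRNA gene alone at 15.9%, and outside both at 34.2%. The nearest protein-coding TSS was 39.9 kb away in the median (38.7 to 41.3 kb), against 37.6 kb (36.8 to 38.6 kb) without the word. In all, 19.5% were 1 to 10 kb from a TSS, 53.0% were 10 to 100 kb, 26.2% were 100 kb to 1 Mb and 1.36% farther. By chromosome, the share of gained distal HoxC5-Pbx4 sites with the word ran from 26.2% (22.7 to 29.8%) on chromosome 21 to 31.2% (28.4 to 34.1%) on chromosome X. The sites were mostly spread out, with a median gap of 99.97 kb. When neighbours up to 12.5 kb apart were joined, 217 groups of 3 or more held 700 sites (6.25%), and the largest had 6, in 17.8 kb at ATXN1 and in 39.0 kb near TMEM63B.

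Each site was assigned to the protein-coding gene of the nearest TSS, which names a neighbour and not a target. Of 19748 protein-coding genes, 5256 (26.6%) were nearest to at least 1 site and 494 (2.50%) to at least 5, and the median over all genes was 0. The most sites were near SOX9, a transcription factor of cartilage and testis development, with 23, of 61 gained distal HoxC5-Pbx4 sites nearest to it. HAS2, a hyaluronan synthase, had 22 of 55, KCNMA1, a calcium-activated potassium channel, 20 of 50, and TRIB1, a pseudokinase, 20 of 45. MYC, a transcription factor of cell growth, had 19 of 62, EFNA5, an ephrin ligand, 18 of 48, TRPS1, a GATA-type repressor, 17 of 47, CDH9, a cadherin, 16 of 35, JAG1, a ligand of Notch receptors, 16 of 44, and RUNX1, a Runt family transcription factor, 16 of 54. These genes were chosen for their number of sites with the word, so their shares with the word are not compared with that of all sites. The counts were not adjusted for the distance between neighbouring genes.

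Lists of genes were described in the same way, beside the 26.6% of all protein-coding genes with a site. Of 11 lists 9 were above it, neuronal and prostate luminal genes included, so a share above it does not single out a list. Of 20 integrin and laminin genes, which attach cells to the matrix, 18 (90.0%) had at least 1 site and 3 had at least 5, with a median of 2 a gene. This list also holds the collagen gene COL17A1, which had 2 sites. The integrins ITGA2, ITGA6 and ITGB5 had 5 each, and ITGA1 and ITGB6 had 4. Of 22 EGF receptor and MAPK feedback genes, 16 (72.7%) had a site and 5 had at least 5. DUSP10, a MAP kinase phosphatase, had 13, its relative DUSP4 had 9, SPRY2, which restrains receptor tyrosine kinases, had 9, ERRFI1, an inhibitor of EGFR, had 7, and EGFR had 5. Of 28 TGF-β pathway genes, 17 (60.7%) had a site, with 10 at the receptor TGFBR2, 9 at each of the ligands TGFB2 and INHBA, and 8 at each of SMAD3, a signal transducer, and LTBP1, which stores the ligand in the matrix. Of 24 actin cytoskeleton and focal adhesion genes, 13 (54.2%) had a site, with 13 at TNS3 (tensin), 11 at LPP and 8 at PALLD (palladin).

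Genes tied to AP-1 itself were counted likewise. Of 25 textbook AP-1 targets, 17 (68.0%) had at least 1 site, but 2 had at least 5, HMGA2, a chromatin protein, with 6 and CXCL8, a chemokine, with 5. Of 22 AP-1 and related bZIP genes, 9 (40.9%) had a site, with 7 at JUN, 7 at BACH2, 5 at ATF3, 3 at FOSL2 and 3 at MAFK. Among the other Fos and Jun genes, FOSL1 had 1, and FOS, FOSB, JUNB and JUND had none. Of 22 YAP and TEAD genes and targets, 14 (63.6%) had a site, with 9 at TGFB2, which is also in the TGF-β list, and 4 at CCN2, a matrix protein. Among 20 neuronal genes 9 (45.0%) had one, with 7 at STMN2, and among 17 prostate luminal genes 7 (41.2%), with 3 at each of NDRG1 and TMPRSS2. Of 32 HOX and TALE genes, 6 (18.8%) had one, and of 25 cytosolic ribosomal protein genes, 3. The share of gained distal HoxC5-Pbx4 sites with the AP-1 word was 31.9% near the integrin and laminin genes, 24.0% near the EGF receptor and MAPK genes, 29.9% near the TGF-β genes, 26.7% near the textbook AP-1 targets, 21.6% (15.7 to 28.6%) near the YAP and TEAD genes and 38.3% (31 of 81, 27.7 to 49.7%) near the bZIP genes, against 28.8% over all such sites. The intervals of all these shares include 28.8% except that of the YAP and TEAD genes, which ends just below it, at 28.57%. A higher share with the word was thus not detectable in any of these lists. Near the EGF receptor and MAPK, TGF-β, and integrin and laminin genes there were 296, 241 and 144 gained distal HoxC5-Pbx4 sites. Whether any of these genes changed its expression was not analysed here.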

How the data were processed

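ChIP-Seq peak lists of 4 libraries from PC-3 cells were used, 1 list per library. Per the labels and the study's methods, reads were mapped by the authors with BWA to hg19, and they called peaks with MACS2. The version and the control of each call are not given in the sources used here, and the 4 input libraries were not used here. The deposited lists hold, per peak, −log10 q and −log10 p, a ratio of ChIP signal over local background (the fold enrichment), a score and the offset of the summit from the start in bp. The authors' score is derived from q and was not analysed further. The study's methods state depth only as an average over libraries, and read totals are not among the columns, so a single library's depth, and precision from it, cannot be given. No comparison made by the authors is among the columns.

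TSSs and genes were taken from GENCODE 44 lifted to GRCh37, and words from the GRCh37 sequence. Each HoxC5 site took the fold of the overlapping Pbx4 peak with the nearest summit. Shares have exact Clopper-Pearson 95% intervals and medians exact binomial ones. Both cover counting error over sites only, which are not replicates of a condition. No test was run, since each overexpressed condition had 1 library. Related windows were found with blastn (BLAST 2.17.0, E-value of at most 1e-06). Python 3.11.15, pandas 2.3.3, scipy 1.17.1 and pysam 0.24.0 were used, and the rules were tested on simulated peaks with planted answers.

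The sites, words and gene lists were chosen with earlier results of these data known, and the word TGATTCAT and the rule for related windows after the sequences had been read. Sites named are the 10 of highest HoxC5 and the 10 of highest Pbx4 fold, those with the most AP-1 words, the strongest with a Hox-Pbx word, and those at each limit. Genes named are the 10 nearest to the most sites and, in each list, those with the most sites. Of the listed gene symbols, ACPP had no match in the annotation. Alternatives were other word windows, TSS distances, overlaps, filters on q and fold, and each endogenous replicate left out. Some named sites, genes and sequences that met these rules are not reported here.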

Additional observations from a re-analysis of the deposited data

How the results depend on the processing

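Of the 8 results recomputed, only the differences of median fold could turn their direction, and neither did under the alternatives. The others were counts, shares or a distance, which cannot change sign. The flanking letters, folds by other words, related windows, sites with several words, retained sites and gene lists were not recomputed, apart from the TGATTCAT counts without the named sites, chosen after seeing the data. Of 70 recomputed values, 51 stayed within the main value's interval (for counts, within 1.5 times) and 19 moved beyond it. With the word within 25 bp of the summit, 6103 sites (15.7%) were left, with the Pbx4 summit 38 bp from the word. With 100 bp, the share was 40.97%, the distance 42 bp and the difference of median Pbx4 fold 0.896. With the HoxC5 summit inside the Pbx4 peak, the share was 29.6% and the Pbx4 difference 0.461. With an overlap of at least 50% of both peaks, 6462 sites (30.4%) were left, with a distance of 36 bp. With −log10 q of at least 5 in both lists, the share was 30.4%, and the differences of median fold fell to 0.364 for HoxC5 and 0.410 for Pbx4. With fold of at least 5 in both, the share was 31.2% and the differences were 0.338 and 0.283. These filters cut off the low end of the folds that they compare. With summits over 5 kb from a TSS, 47.1% of sites were inside a gene. With sites within 100 kb of a TSS, 24.1% of protein-coding genes had one. With endogenous replicate 1 alone left out, 11584 sites met the rule, and with replicate 2 alone left out, 11206. In each case 28.8% of gained distal HoxC5-Pbx4 sites held the word. No paired analysis was possible because the overexpressed conditions had 1 library each and no result comes from a test. The depth of a single library is unknown, so how many endogenous peaks were missed is not known.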
